A study of Caenorhabditis elegans with 22 samples.

Results

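The *col-* genes of *Caenorhabditis elegans* are a large family of cuticle collagen genes. They were taken by name, as every gene whose WormBase name is *col-* followed by a number alone, and 156 of the 20392 genes in each count table fit that rule. Their RNA was measured in 22 libraries, in 11 groups of 2 replicates that the labels call independent. All came from L3 larvae that had been synchronized as L1 larvae, and all from cells sorted out of a dissociated animal. Body wall muscle cells were sorted by red fluorescence driven by the *myo-3* promoter from N2 (the Bristol wild type), *met-2(n4256)*, *set-25(n5021)* and the double mutant *met-2(n4256); set-25(n5021)*, and a non-muscle fraction came from N2 only. Seam cells were sorted as double-positive cells, by a seam GFP reporter and a junctional AJM-1 mCherry marker, from the same 4 genotypes. A last experiment used muscle cells of a *met-2::degron* strain, in which the TIR1 protein is made in all cells and auxin leads to destruction of MET-2, grown with or without auxin. Both degron groups carry the tag and TIR1, and no strain lacking the degron was given auxin, so loss of MET-2 and an effect of auxin itself cannot be told apart.

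The cuticle is the collagen-rich outer coat of the worm, secreted by the hypodermis and the seam cells beneath it and replaced at every moult. Each moult is preceded by waves of collagen gene transcription, in which early, middle and late genes follow each other within one larval stage. Most *col-* genes have no known mutant phenotype of their own, unlike the body-shape collagens, whose *dpy*, *rol*, *sqt* and *lon* mutants are short, rolling or long. MET-2 and SET-25 are the methyltransferases that put mono- and dimethylation (MET-2) and trimethylation (SET-25) on lysine 9 of histone H3.

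Libraries held 11883702 to 24752059 counts, and levels below are CPM (counts scaled to a library total of 1000000), with RPKM (CPM per 1000 bases of exon) wherever genes are ranked against each other. Of the 156 genes, 5 had no count in any library (*col-7*, *col-62*, *col-126*, *col-127* and *col-171*), and 27 never reached 10 counts. By the WBcel235 annotation, 45 lie directly beside another *col-* gene, in 19 runs that include *col-7* and *col-62*, *col-126* and *col-127*, and *col-167* to *col-171*. Since the tables hold uniquely aligned reads, a gene with a near-identical copy may be undercounted, and that was not tested here. The spans of 48 members overlap a protein-coding gene on the opposite strand, and the library kit does not mark strand. Reads where the exons of such a pair overlap cannot be told apart, and overlap of exons was not examined. Counts over *met-2* exons were lower in *met-2* than in N2 (26.0 and 27.3 CPM against 42.8 and 46.5 in muscle, 14.03 and 15.93 against 39.26 and 37.04 in seam cells), and those over *set-25* exons were lower in *set-25* (5.21 and 7.68 against 10.8 and 9.74 in muscle, 17.1 and 17.3 against 33.1 and 30.5 in seam cells). In double mutant seam cells both were lower than in N2, *met-2* at 22.1 and 20.3 CPM and *set-25* at 21.3 and 19.1 CPM. In double mutant muscle the deletions showed little: *met-2* had 40.9 and 35.9 CPM, and *set-25* (11.6 and 4.11 CPM) overlapped N2. Counts are summed over all exons of a gene and reads by exon were not examined, so the cause of these levels was not tested.

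In N2 the family was a seam and non-muscle set. It took 4.39% and 6.09% of all counts in the seam libraries, 1.48% and 1.24% in the non-muscle libraries and 0.0222% and 0.0201% in the muscle libraries. Over the 156 genes, 24 exceeded 100 CPM on average in N2 seam cells, 18 in non-muscle cells and 0 in muscle. The plot of shares by library shows the 3 tissues as separate bands. Mutant seam libraries ran from 2.36% to 4.54%, with *set-25* at 2.36% and 3.67%. Degron muscle libraries (0.0729% to 0.156%) lay above the muscle libraries of the genotype series (0.0128% to 0.0289%).

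**Figure D1:**
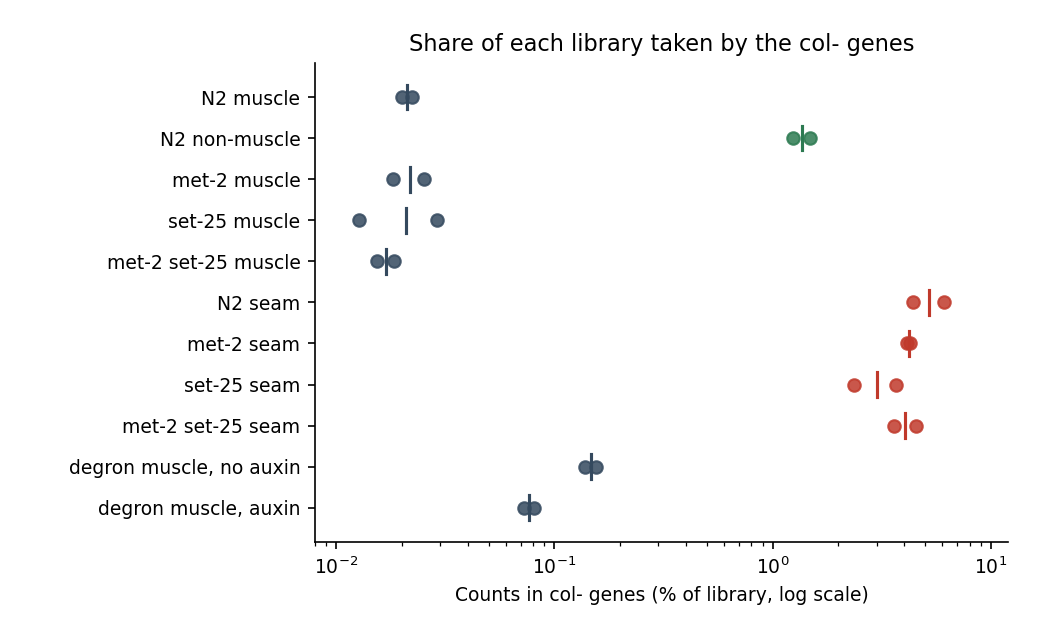
Percent of each library's counts that fell in the 156 *col-* genes, on a log axis; each point is 1 library and each short line the mean of the 2 libraries of a group. Seam libraries lie between 2.36% and 6.09%, the muscle libraries of the genotype series between 0.0128% and 0.0289%, and the degron muscle libraries between them.

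The same few genes led in each tissue. Ranked by RPKM, *col-125*, *col-107*, *col-90*, *col-77* and *col-65* were the 5 highest in N2 seam cells, with means of 11977, 9401, 7915, 6848 and 4737 RPKM. They were followed by *col-17* (1537 RPKM), *col-98* (1231), *col-41* (1138), *col-103* (858) and *col-130* (492). Together the first 5 took 3.34% and 4.80% of all counts in the N2 seam libraries, against 1.05% and 1.29% for the other 151. In non-muscle cells the 5 highest were also *col-125*, *col-90*, *col-107*, *col-77* and *col-65*, at 993 to 2868 RPKM, and in muscle *col-125*, *col-90*, *col-107*, *col-77* and *col-156*, at 9.42 to 35.1 RPKM.

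*col-* genes were lower in muscle than in both other tissues. A gene was called when its adjusted p in edgeR's quasi-likelihood test was under 0.01 and its level, on a log2 scale after adding 8 to the scaled counts, differed more than 2-fold. Between muscle and non-muscle cells 93 members had enough counts to be tested, and 52 were lower and 1 was higher in muscle, where 23.4% of all genes tested were lower and 9.17% higher. The fall was led by *col-79*, which had 0.419 and 0.0755 CPM in muscle and 135 and 91.6 CPM in non-muscle cells, and by *col-118*, with 0.699 and 0.679 against 97.8 and 214 CPM. *col-65* followed, with 7.75 and 8.98 CPM in muscle and 1156 and 790 CPM in non-muscle cells. All 3 pairs of groups are far apart. Their fitted log2 changes were -7.27 ± 0.53 (SE), -6.33 ± 0.55 and -5.35 ± 0.24, with adjusted p of 9.52e-05, 0.000200 and 3.82e-05. Fitted changes use the TMM scaling and not the added 8. Their median over all genes tested was -0.57, where that of the log2 differences was -1.73. Scaled by library totals, 80 were lower and 0 higher, and without the second N2 muscle library 35 were lower.

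Over the 18 members above 100 CPM in the non-muscle cells, the muscle level was 0.218% to 2.55% of the non-muscle level, with a median of 1.13%. The summed level of the hypodermis markers (8 of 9 found) was 1.66% of the non-muscle sum: 20.1 and 29.8 CPM in muscle, with 1 of the 8 at 0, against 1494 and 1515 CPM. Whether carried-over epidermal RNA accounts for the muscle level of these members was not tested.

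**Figure D2:**
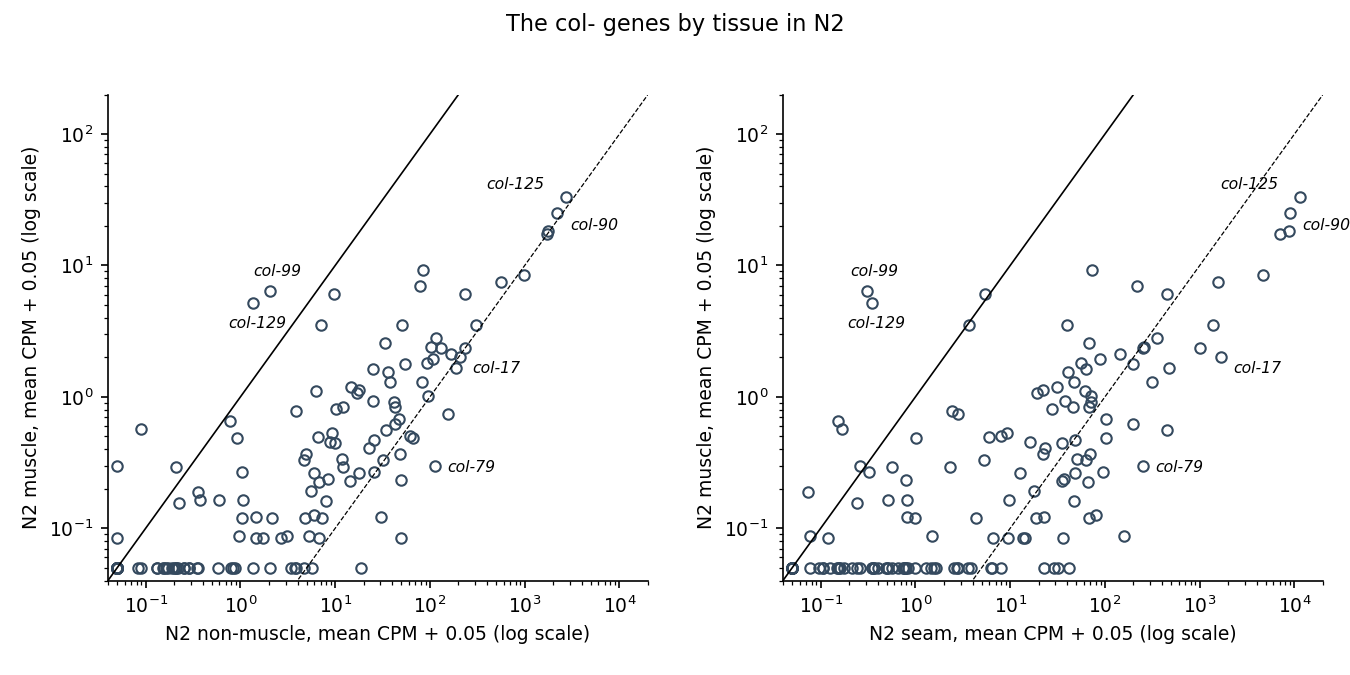
Mean CPM (2 libraries) of the 156 *col-* genes in N2 muscle against N2 non-muscle cells (left) and N2 seam cells (right), with 0.05 added and both axes on a log scale; the solid line marks equal levels and the dashed line a muscle level 100 times lower. At high levels genes lie near the dashed line on the left and mostly below it on the right, while *col-99* and *col-129* lie above the solid line in both panels.

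*col-99* was the exception. It encodes a transmembrane collagen rather than a cuticle component, and its level was 6.71 and 5.96 CPM for N2 muscle, 1.41 and 2.58 in non-muscle cells and 0.234 and 0.276 in seam cells. The 3 tissues do not overlap. It was higher in muscle than in non-muscle cells (fitted log2 change 3.16 ± 0.62, adjusted p = 0.00570) and lower in seam cells than in muscle (-5.56 ± 0.50, adjusted p = 0.000187), although the first call was lost with scaling by library totals and without the first non-muscle library or either muscle library. Its neighbour on the opposite strand, *daf-1*, had the reverse order: 6.71 and 6.94 CPM in muscle, 18.3 and 13.5 in non-muscle cells and 34.3 and 29.9 in seam cells. *col-129* was the other member lower in seam cells than in muscle, with 0.328 and 0.276 CPM against 5.59 and 4.60 (fitted log2 change -4.9996 ± 0.524, adjusted p = 0.000362). In the non-muscle libraries it had 0.134 and 2.50 CPM, both below muscle, and that difference was not called (adjusted p = 0.0402).

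Between seam cells and muscle, 103 members were tested, and 78 were higher and 2 lower in seam cells, against 29.3% and 14.8% of all genes tested. On the log2 scale with 8 added *col-17* differed most, with 2.52 and 1.43 CPM in muscle and 1549 and 1809 CPM in seam cells. Its fitted log2 change was 8.76 ± 0.30 (adjusted p = 4.75e-06). *col-65*, *col-107*, *col-42* and *col-77* came next, with log2 differences of 8.59 to 9.01 on the scale with 8 added. These comparisons rest on 2 tables deposited separately but counted alike, and fluorescent reporter and tissue change together in them.

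Other genes of the cuticle and the basement membrane frame these values. Among the body-shape collagens, 15 of 18 tested were lower in muscle than in non-muscle cells and 16 of 18 were higher in seam cells than in muscle, with *sqt-3*, *lon-3* and *sqt-2* the most different there. The basement membrane collagens *emb-9* and *let-2*, which body wall muscle is known to make, went the other way: both were higher in muscle than in non-muscle cells and lower in seam cells. The summed body wall muscle markers were 114912 and 120232 CPM in N2 muscle against 3390 to 3435 CPM in N2 seam cells, and the seam markers 80.01 to 90.4 CPM against 3372 to 3492 CPM, in the direction of the labels.

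Members tied to other life stages were scarce. *col-2*, which is known for dauer larvae, had 46 and 16 counts in the N2 seam libraries, and no library of N2 muscle held any. *col-19*, a marker of the adult cuticle, did not exceed 0.476 CPM in any seam library. *col-7* was at 0 in every library, and *col-6* is not named in the tables.

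In muscle no member passed both thresholds in any mutant. Of the 55 members tested, edgeR called 0 in *met-2* (where 2.17% of all genes tested were higher and 0.0655% lower), 0 in *set-25* (0% higher and 0% lower) and 0 in the double mutant (2.36% and 0.207%). At an unadjusted p under 0.05, there were 0 higher and 4 lower members in *met-2*, 1 and 3 for *set-25*, and 1 and 5 for the double mutant, and DESeq2 called 2, 0 and 2 members, all lower.

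The 2 members nearest the threshold, named after their values were seen, were *col-77* and *col-65*. *col-77* had 17.4 and 17.4 CPM for N2 muscle, 3.04 and 4.55 for *met-2*, 8.18 and 2.56 for *set-25* and 3.93 and 1.63 in the double mutant. *col-65* had 7.75 and 8.98 CPM for N2, 1.48 and 0.540 for *met-2*, 3.06 and 0.731 for *set-25* and 0.620 and 0.621 for the double mutant. N2 was the highest group for both, with no overlap with any mutant. Their adjusted p were 0.0296 and 0.0331 for *met-2*, 0.576 and 0.671 for *set-25*, and 0.0113 and 0.0119 in the double mutant. The hypodermis markers summed to 20.1 and 29.8 CPM in N2 muscle. Their sums were 25.3 and 38.02 CPM in *met-2* muscle and 32.2 and 16.9 CPM in double mutant muscle. In *set-25* muscle the second library had 26.9 CPM and the first lay above both of N2. Each mutant thus overlapped N2 in this sum, where *col-77* and *col-65* did not. The part of carried-over hypodermal RNA in the levels of these genes was not tested. The 2 *set-25* muscle libraries differed more than the others: 50.9% of the tested members were over 2-fold apart between them, against 16% of all genes.

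In seam cells members were called in all 3 mutants, and the 12 that were lower in *met-2* were lower in *set-25* too. Of 120 members tested, 12 were lower and 3 higher in *met-2*, where 3.11% of all genes tested were lower and 2.08% higher. In *set-25* 46 were lower and 0 higher (10.3% and 0.342% of all genes), and in the double mutant 12 were lower and 0 higher (0.723% and 2.16%). At an unadjusted p under 0.05 edgeR had 5 members higher in *set-25* and 5 in the double mutant, and DESeq2 called 0 and 1 higher. The 3 comparisons share the N2 seam libraries. Median log2 differences over the tested members were -0.46, -1.35 and -0.24, beside -0.14, -0.30 and 0.26 over all genes tested. In the fit, whose scaling moved the medians of all genes to -0.03, -0.05 and 0.03, the members stood at -0.42, -1.76 and -0.50.

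Sorted by their 3 calls, 12 members were lower in both single mutants and not in the double mutant, 30 were lower in *set-25* alone, and 3 were lower in *set-25* and in the double mutant. Another 9 were lower in the double mutant alone, 2 were higher in *met-2* alone, and 1 was higher in *met-2* and lower in *set-25*. The other 63 tested members were not called in any of the 3. The heat map of the 57 called members shows these blocks library by library.

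**Figure D3:**
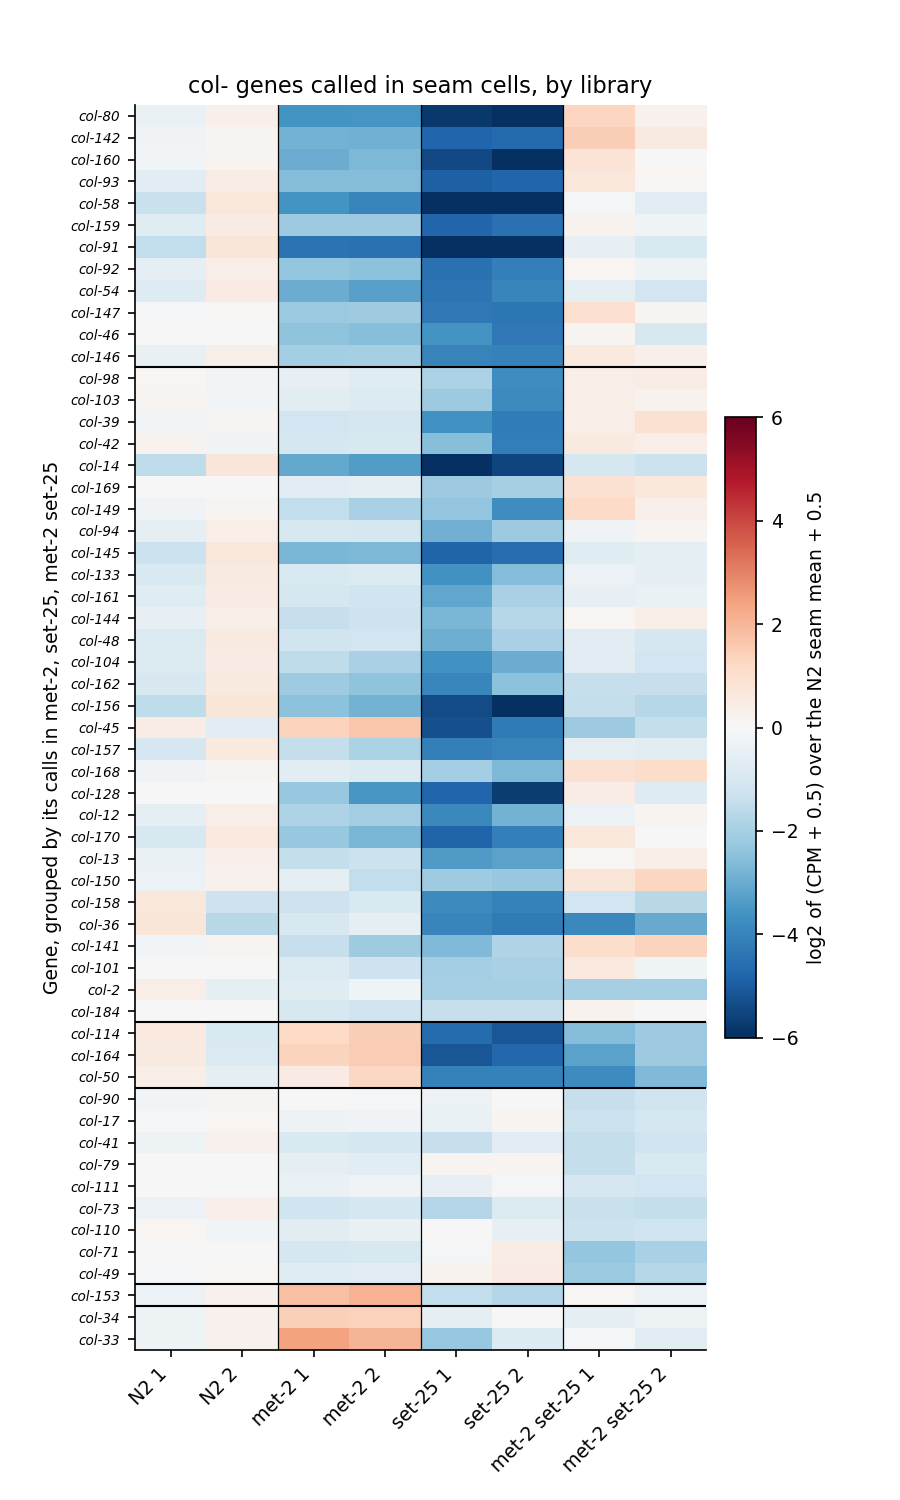
Level of the 57 *col-* genes called in at least 1 mutant, in each of the 8 seam libraries, as log2 of (CPM + 0.5) over the mean of the N2 seam libraries plus 0.5; rows are grouped by their calls in *met-2*, *set-25* and the double mutant, with the highest mean level first in each block. Blue is below and red above N2, and the *set-25* columns are blue in the upper 3 blocks. The double mutant is pale or red in most rows of the upper 2, while *col-2* and *col-45* in the second stay below N2.

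The calls fell on members of middle abundance. Over the 8 seam libraries 23 tested members averaged over 100 CPM, 45 from 10 to 100 CPM and 52 under 10 CPM. In *set-25* 5 of the 23, 31 of the 45 and 10 of the 52 were lower, and in *met-2* 0 of the 23, 11 of the 45 and 1 of the 52. In the double mutant the order was different, with 6 of the 23, 5 of the 45 and 1 of the 52 lower. Genes with few counts have less chance to pass the test.

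The most abundant members were not called in *set-25*. *col-125* had 8924 and 13712 CPM for N2, 9296 and 9161 for *met-2*, 4388 and 7291 for *set-25* and 9777 and 12466 for the double mutant. *col-107* had 7119 and 10536 CPM for N2, 7061 and 6861 for *met-2*, 3123 and 5307 for *set-25* and 7097 and 10854 for the double mutant. *set-25* was the lowest group for both, and neither change passed the test (fitted log2 changes -0.68 ± 0.28 and -0.79 ± 0.31, adjusted p = 0.0980 and 0.0830). *col-77* and *col-65* were also not called in any of the 3 mutants. The whole family took 2.36% and 3.67% of counts in *set-25* seam cells, below the 4.39% and 6.09% of N2, and the members other than the top 5 took 0.448% and 0.562% against 1.05% and 1.29%.

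Lower in both single mutants and not called in the double mutant were *col-46*, *col-54*, *col-58*, *col-80*, *col-91*, *col-92*, *col-93*, *col-142*, *col-146*, *col-147*, *col-159* and *col-160*. Summed, they had 276 and 560 CPM for N2, 52.8 and 51.2 for *met-2*, 8.34 and 8.37 for *set-25* and 600 and 365 for the double mutant. *col-80* had 35.0 and 56.6 CPM for N2, 3.41 and 3.55 for *met-2*, 0.345 and 0.0476 for *set-25* and 112 and 55.6 for the double mutant. *set-25* was lowest, *met-2* next, and N2 and the double mutant overlapped. The fitted log2 changes of *col-80* were -3.60 ± 0.41 for *met-2* (adjusted p = 0.000926), -7.56 ± 0.59 for *set-25* (adjusted p = 0.000131) and 0.59 ± 0.35 in the double mutant (adjusted p = 0.317).

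The other leading genes of this set had the same order in the single mutants. *col-142* had 27.2 and 35.6 CPM for N2, 3.96 and 3.76 for *met-2*, 0.691 and 0.761 for *set-25* and 88.1 and 45.8 for the double mutant. *col-160* had 35.0 and 44.7 CPM for N2, 4.66 and 5.82 for *met-2*, 0.444 and 0.143 for *set-25* and 70.9 and 40.2 for the double mutant. For both genes the 3 levels, *set-25*, *met-2* and N2, did not overlap. Both double mutant libraries lay above both of N2 for *col-142*, and the groups overlapped for *col-160*. *col-58* and *col-91* differed between the N2 replicates, at 19.9 and 82.3 CPM and at 16.3 and 77 CPM, and *met-2* (3.81 and 2.80, 1.70 and 1.64 CPM) and *set-25* (0.247 and 0.0476, 0.197 and 0.190 CPM) lay below the lower of them. In the double mutant they had 46.3 and 31.2 CPM and 32.6 and 24.5 CPM, within the N2 range. Fitted log2 changes in *met-2* ran from -2.90 ± 0.29 (*col-142*) to -4.69 ± 0.69 (*col-91*), and in *set-25* from -5.14 ± 0.35 (*col-142*) to -8.13 ± 0.93 (*col-58*).

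All 12 were higher in the double mutant than in *met-2*, and for all 12 the falls of the single mutants did not add up. The double mutant lay above their sum (positive interaction in edgeR, adjusted p under 0.01). The 12 were picked by their calls in these same libraries, which favours both results, so neither is separate support. *col-80*, *col-93* and *col-160* are examples from 3 neighbourhoods: *col-79*, *col-39* and *col-80* lie side by side, as do *col-92*, *col-93* and *col-94*, and *col-159* and *col-160*. Neighbours did not always share a call, since *col-79* (N2 257 and 245 CPM, *set-25* 282 and 277 CPM) was lower only in the double mutant. Of the 12, 7 overlap a gene on the opposite strand. The partner was tested in 4 of these cases and was called lower in *met-2* in 0.

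Alone in *set-25*, 30 further members were lower. They include well-expressed genes: *col-98* had 1516 and 1235 CPM for N2, 984 and 844 for *met-2*, 373 and 105 for *set-25* and 1773 and 1884 for the double mutant. *col-103* had 1111 and 898 CPM for N2, 646 and 563 for *met-2*, 222 and 71.2 for *set-25* and 1309 and 1147 for the double mutant. *col-39* fell most of the abundant ones, from 402 and 504 CPM (N2) to 36.3 and 23.9 CPM (*set-25*), while *met-2* had 205 and 223 and the double mutant 594 and 844 CPM. For all 3, *met-2* lay between *set-25* and N2 and the double mutant lay above N2, without overlap. Their fitted log2 changes in *set-25* were -2.21 ± 0.48, -2.46 ± 0.44 and -3.62 ± 0.29 (adjusted p = 0.00982, 0.00397 and 0.000136). *col-156* differed between the N2 replicates (24.6 and 119.8 CPM) and had 12.7 and 9.58 CPM in *met-2*, 1.23 and 0.571 for *set-25* and 26.6 and 21.7 for the double mutant (fitted log2 change from N2 to *set-25* -6.05 ± 0.81, adjusted p = 0.000981).

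Over the 30 genes, the summed level was 4276 and 4718 CPM for N2, 2494 and 2289 for *met-2*, 802 and 366 for *set-25* and 5383 and 5384 for the double mutant. Some adjacent genes were lower together in *set-25* and others were split. *col-12* and *col-13*, *col-141* and *col-142*, *col-144* and *col-145*, and *col-149* and *col-150* were lower as pairs, and *col-168*, *col-169* and *col-170* as a run. *col-46* and *col-104* were lower while their neighbours *col-47* and *col-105* were not called, nor was *col-10*, which lies beside *col-145*. *col-167*, the first gene of that run, was not called, with 264 and 359 CPM for N2 and 148 and 245 for *set-25*.

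Of the 46 genes lower in *set-25*, 21 were under 1 CPM in both *set-25* libraries, and 3 had no count in either. In the double mutant 38 of the 46 were higher than in *set-25*, and 27 had a mean of over 80% of the N2 mean. The 46 were picked as low in the same *set-25* libraries, which favours a higher level in the double mutant. Where a member lower in *set-25* has a protein-coding partner on the opposite strand (17 of 46), the partner was tested in 13 cases and was itself lower in 1, *T06E4.5* beside *col-147*.

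A few members went down in *set-25* and stayed low in the double mutant. *col-114* had 47.0 and 16.3 CPM for N2, 72.1 and 90.02 for *met-2*, 0.789 and 0.428 for *set-25* and 4.77 and 6.58 for the double mutant. *col-164* had 42.3 and 15.5 CPM for N2, 72.5 and 84.9 for *met-2*, 0.345 and 0.618 for *set-25* and 2.71 and 6.08 for the double mutant. The order was the same for both, *set-25* lowest, then the double mutant, N2 and *met-2*, with no overlap. Fitted log2 changes from N2 were -5.39 ± 0.58 and -5.59 ± 0.65 for *set-25* (adjusted p = 0.000391 and 0.000574), and -2.71 ± 0.45 and -2.95 ± 0.50 in the double mutant (adjusted p = 0.00616 and 0.00692). In *met-2* they were 1.496 ± 0.41 and 1.58 ± 0.45, and did not pass the test (adjusted p = 0.0412 and 0.0472).

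*col-50* had 10.6 and 5.30 CPM for N2, 11.5 and 19.7 for *met-2*, no count in *set-25* and 0.121 and 0.847 in the double mutant. Against 3 counts in a library, N2 was at least 54.6-fold above *set-25*. *col-163* had 10.03 and 2.87 CPM for N2, 27.5 and 24.7 for *met-2*, no count in *set-25* and 0.0404 and 1.79 in the double mutant, and of its changes only the fall from *met-2* to the double mutant passed (fitted log2 change -5.24 ± 1.01, adjusted p = 0.00811). *col-45* ran the same way, with 31.1 and 14.6 CPM for N2, 60.2 and 74.0 for *met-2*, 0.0987 and 0.714 for *set-25* and 4.73 and 8.27 for the double mutant, and it was lower in *set-25* but not called in the double mutant (adjusted p = 0.0210). *col-2*, known from dauer larvae, had 2.16 and 0.883 CPM for N2, 0.701 and 1.16 for *met-2* and no count in the 4 *set-25* and double mutant libraries, which puts N2 at least 10.5-fold above *set-25*. For each of these genes the first N2 replicate was higher than the second.

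By edgeR's calls 3 members were higher in *met-2* than in N2. *col-153* had 79.8 and 123 CPM for N2, 352 and 431 for *met-2*, 36.01 and 29.97 for *set-25* and 106.7 and 79.5 for the double mutant. It rose in *met-2* (2.07 ± 0.24 on the fitted log2 scale, adjusted p = 0.00102) and was lower in *set-25* (-1.33 ± 0.24, adjusted p = 0.00394). *col-34*, also known as *ram-4* and needed for the rays of the male tail, had 71.77 and 106.5 CPM for N2, 242 and 236 for *met-2*, 58.4 and 90.4 for *set-25* and 59.8 and 71.76 for the double mutant (*met-2* against N2 1.54 ± 0.25, adjusted p = 0.00458). *col-33* had 7.31 and 11.3 CPM for N2, 51.5 and 39.5 for *met-2*, 1.53 and 5.00 for *set-25* and 8.81 and 5.88 for the double mutant (2.42 ± 0.42, adjusted p = 0.00671). *met-2* was the highest group for all 3, and N2 and the double mutant overlapped for *col-153* and *col-33*, while both double mutant libraries lay below both of N2 for *col-34*, by a margin too small to read. All 3 were lower in the double mutant than in *met-2*, with fitted log2 changes of -2.46 ± 0.24, -2.23 ± 0.25 and -3.01 ± 0.43.

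**Figure D4:**
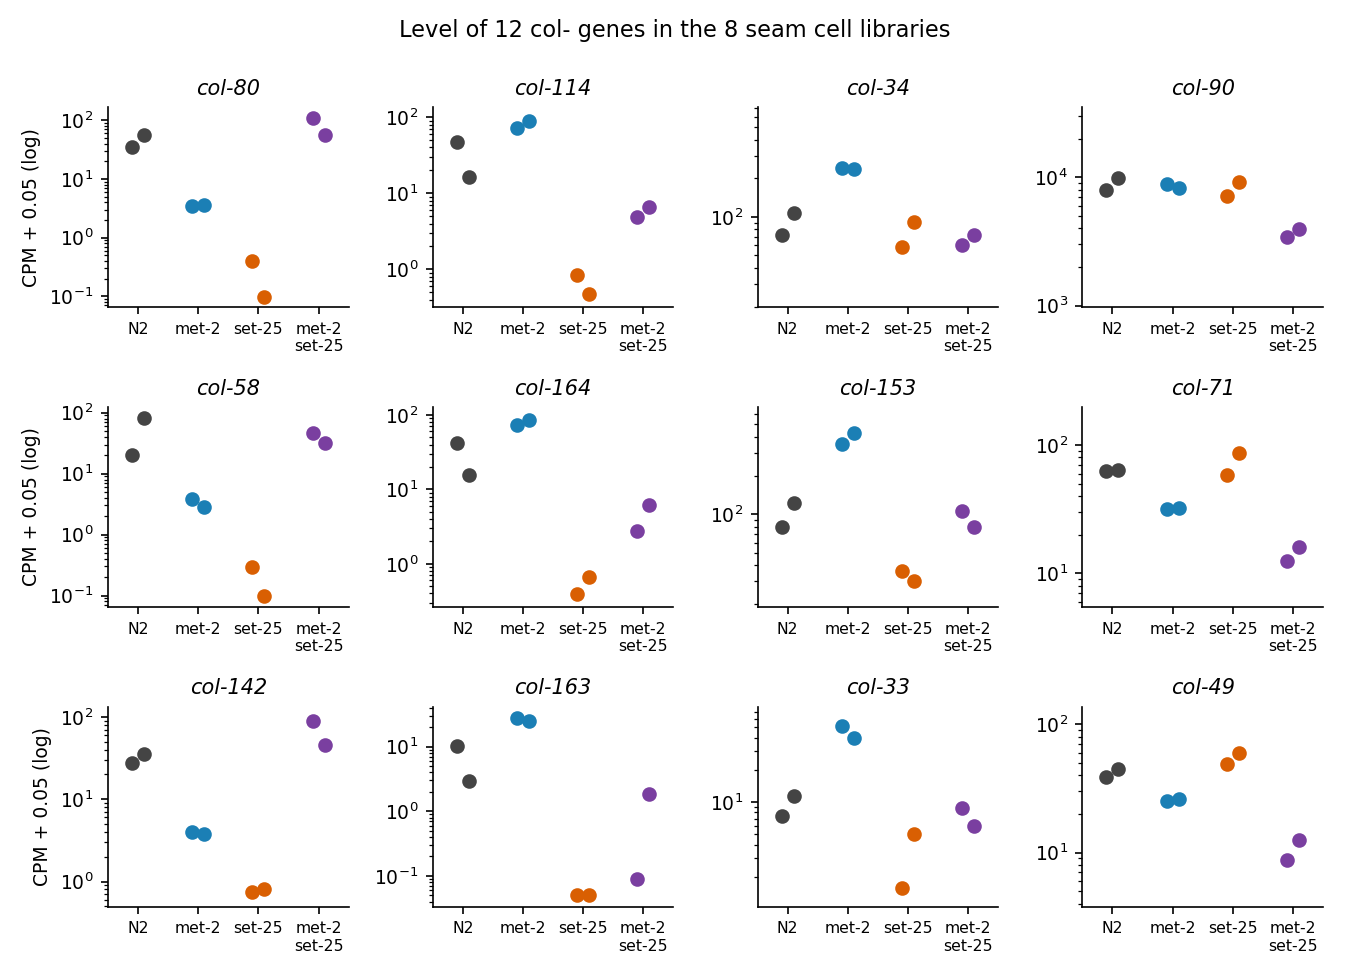
Level of 12 *col-* genes in the 8 seam libraries, as CPM with 0.05 added on a log axis whose range differs between panels; each point is 1 library. The columns show genes low in both single mutants, genes highest in *met-2* and low in *set-25* and the double mutant, genes raised in *met-2*, and genes low in the double mutant.

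In the double mutant alone, 9 members were lower: *col-17*, *col-41*, *col-49*, *col-71*, *col-73*, *col-79*, *col-90*, *col-110* and *col-111*. *col-90*, one of the 5 most abundant, had 7999 and 9888 CPM for N2, 8895 and 8274 for *met-2*, 7117 and 9153 for *set-25* and 3447 and 3936 for the double mutant. The double mutant lay apart from the 6 other libraries, which overlapped among themselves. Its fitted log2 change was -1.52 ± 0.19 (adjusted p = 0.00173). Its partner on the opposite strand, *let-754*, was called lower there too. This partner had 1532 and 1899 CPM for N2 and 775 and 803 for the double mutant. Reads where exons of the pair overlap cannot be told apart. *let-754* was the 1 partner called lower among those of 6 members lower in the double mutant. *col-71* had 62.8 and 63.7 CPM for N2, 31.5 and 32.5 for *met-2*, 58 and 87.2 for *set-25* and 12.4 and 16 for the double mutant. *col-49* had 39 and 44.8 CPM for N2, 25.3 and 26.0 for *met-2*, 48.6 and 59.3 for *set-25* and 8.65 and 12.4 for the double mutant. For these genes *met-2* lay between N2 and the double mutant, and the fitted log2 changes in the double mutant were -2.40 ± 0.21 and -2.24 ± 0.22 (adjusted p = 0.000298 and 0.000467). Over the 9 genes the sum was 11597 and 14407 CPM for N2, 11586 and 11041 for *met-2*, 9645 and 12770 for *set-25* and 5038 and 5786 for the double mutant.

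Set against the single mutants, the double mutant had 18 members higher and 20 lower than *met-2* (6.14% and 2.30% of all genes tested), and 45 higher and 8 lower than *set-25* (19.5% and 1.80%). Scaled by library totals, the first split became 24 higher and 16 lower. The 38 calls against *met-2* became 62 without the filter on low counts, 14 or 11 without the first or second *met-2* library and 16 or 22 without the first or second double mutant library. Largest among the rises over both was *col-80* (fitted log2 changes 4.19 ± 0.41 over *met-2* and 8.16 ± 0.59 over *set-25*). The falls from *set-25* were led by *col-49* and *col-71* (-2.89 ± 0.22 and -2.88 ± 0.22), with *col-79*, *col-43* and *col-90* at -1.85 ± 0.20, -1.87 ± 0.21 and -1.67 ± 0.19. The test of the interaction between *met-2* and *set-25* found 40 members with a positive and 11 with a negative value, against 16.3% and 11.1% of all genes tested. With library totals there were 48 and 5. A positive interaction was found for 37 of the 46 members that *set-25* lowered. These were picked on the same *set-25* and N2 values, which favours a positive value.

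The seam libraries differed in other ways alongside these calls. Genes with at least 10 counts numbered 11749 and 10927 in N2 and 11217 and 10804 in *met-2*. In *set-25* there were 9778 and 9810, the fewest, and in the double mutant 12898 and 12118. Library totals of *set-25* (20270665 and 21019050) lay within the seam range of 18114744 to 24752059. The part of this difference in the falls was not tested. In the N2 seam pair, 19 tested members were over 2-fold higher and 13 over 2-fold lower in the second library, or 26.7% against 7.20% of all genes, while the *met-2* pair had 4.17%. Without the first N2 seam library 23 members were lower and 2 higher in *met-2*, and without either *met-2* library only 2 or 0 were called, so the *met-2* counts rest on both of its libraries. With DESeq2, 24 were lower and 5 higher in *met-2*. The 46 falls in *set-25* became 33 to 45 when any 1 of the 4 libraries was left out, and 25 when the 4 were fitted alone. In the double mutant, leaving out either of its libraries gave 3 or 7, and the 4 libraries alone gave 6.

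Markers of other cells moved too. The neuron markers (9 found, 9 tested) summed to 117 and 124 CPM in N2 seam cells, 41.1 to 57.7 in *set-25* and 236 to 300 in the double mutant, and the intestine markers (8 found, 7 tested) to 132 to 209, 38.96 to 55.99 and 433 to 450 CPM. The germline markers (9 found, 9 tested) summed to 76.7 to 84.5 CPM in N2, 209.7 to 226 in *met-2*, 69.5 to 87.5 in *set-25* and 480 to 515 in the double mutant, with 5 of 9 higher in *met-2* and 5 of 9 in the double mutant. In *set-25*, 4 of the neuron and 2 of the intestine markers were lower. The hypodermis markers summed to 5829 to 7705 CPM in N2, 6343 to 6533 in *met-2*, 4368 to 9409 in *set-25* and 8900 to 9739 in the double mutant, and the seam markers to 3372 to 3492, 3400 to 3551, 2454 to 3498 and 3698 to 4813 CPM. Of the 8 hypodermis markers tested, 1 was called lower in the *met-2* cells and 2 in those of *set-25*, and their median log2 difference in *set-25* was -0.19. Of the 9 seam markers tested, 1 was lower in *set-25* (*grd-10*, fitted log2 change -2.16 ± 0.41, adjusted p = 0.00494). *elt-3*, a GATA factor of the hypodermis, was singled out from its list after its values were seen. It had 54.4 and 49.3 CPM for N2, 11.5 and 8.52 for *met-2*, 5.38 and 1.76 for *set-25* and 113 and 70.4 for the double mutant. It was lower in *met-2* and *set-25* (fitted log2 changes -2.25 ± 0.39 and -3.56 ± 0.43, adjusted p = 0.00666 and 0.000639), and *wrt-1* was lower in *set-25* (-2.55 ± 0.29, adjusted p = 0.000512). The part of other cells in these falls was not tested. In a sorted pool, fewer cells that make a collagen and less of its RNA per cell cannot be told apart. Collagen genes follow each other within a larval stage, and whether the groups compared, here or in muscle, differed in time within L3 was not tested.

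The body-shape collagens did not follow the *set-25* pattern. Of 18 tested, 0 were called in *met-2* and 0 in *set-25* by edgeR (with an unadjusted p under 0.05 for 6 higher and 1 lower, and for 5 higher and 3 lower), and 3 were lower in the double mutant: *dpy-5*, *dpy-13* and *dpy-4*, with fitted log2 changes of -1.49 ± 0.19, -1.41 ± 0.22 and -1.37 ± 0.21. Against *met-2*, 7 were lower in the double mutant, led by *lon-3*, *sqt-3* and *rol-8*. Among 23 genes of the moulting cycle, 5 were lower in *set-25*, led by *nekl-2*, a kinase needed for moulting, *nas-36*, an astacin protease, and *mlt-2*. *nekl-3*, a second kinase of that kind, was the single fall of the list in *met-2* (-2.52 ± 0.34), and *mlt-10* the single fall in the double mutant (-2.57 ± 0.12). Of 19 collagen processing genes tested, 3 were called lower in *set-25*: *bli-5*, *mlt-7* and *dpy-31*. Their fitted log2 changes were -2.81 ± 0.55, -0.83 ± 0.12 and -0.80 ± 0.14. At an unadjusted p under 0.05 edgeR had 9 of the 19 higher and 3 lower, and the median log2 difference of the list was -0.02.

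Whether a mutation acted differently in seam cells and muscle was tested on both tables together. For *set-25* 13 of 120 members had a more negative change in seam cells and 0 a more positive one (1.54% and 0.248% of all genes tested), among them *col-80*, *col-160*, *col-58*, *col-142*, *col-91* and *col-156*. For the double mutant there was 1 such member, *col-111*, and 0 in the other direction (0.396% and 0.101%). For *met-2* edgeR found 0 in either direction (0.404% and 0.101%), with 24 negative and 8 positive at an unadjusted p under 0.05. Most members have few counts in muscle, which limits this test.

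In *met-2::degron* muscle the family was lower with auxin. Of 87 members tested, 19 were lower and 0 higher with auxin, where 0.816% of all genes tested were lower and 0.913% higher. At an unadjusted p under 0.05, 9 were higher and 37 lower, and DESeq2 called 0 higher and 19 lower. The family's share of counts was 0.156% and 0.138% without and 0.0807% and 0.0729% with auxin. On the scale with 8 added *col-77* fell most, from 43.8 and 48.9 CPM to 3.57 and 7.07 CPM (-3.27 ± 0.27 in the fit, adjusted p = 5.99e-06). *col-41* fell from 178 and 125.2 CPM to 26.0 and 35.2 CPM (-2.42 ± 0.23, adjusted p = 1.82e-05). *col-156* fell from 23.1 and 21.8 CPM to 3.12 and 5.39 CPM (-2.54 ± 0.27, adjusted p = 4.72e-05). None of these pairs of groups overlapped.

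Low-level members fell as well. *col-54* went from 9.88 and 5.67 CPM to 0.944 and 0.589 CPM, and *col-33* from 4.16 and 4.14 CPM to 0.534 and 0.337 CPM (-3.38 ± 0.43 and -3.27 ± 0.47, adjusted p = 0.000229 and 0.000620). The other 14 called genes were *col-14*, *col-17*, *col-48*, *col-65*, *col-73*, *col-90*, *col-104*, *col-107*, *col-109*, *col-111*, *col-130*, *col-145*, *col-157* and *col-162*. The abundant *col-90* fell from 306 and 185 CPM to 62.1 and 86.1 CPM, and *col-107* from 114.7 and 129.3 CPM to 37.8 and 38.5 CPM.

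Not all members took part. *col-125*, the most abundant in this muscle too, had 282 and 240 CPM without and 180 and 175 CPM with auxin and missed the threshold (fitted log2 change -0.65 ± 0.17, adjusted p = 0.0522). *col-39* had 22.5 and 25.3 CPM without and 44.4 and 27.9 CPM with auxin, and *col-98* had 16.7 and 19.2 against 33.3 and 23.2 CPM, neither of them called (adjusted p = 0.261 and 0.162). The plot of levels with against without auxin shows the 19 genes spread over a wide range of abundance.

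**Figure D5:**
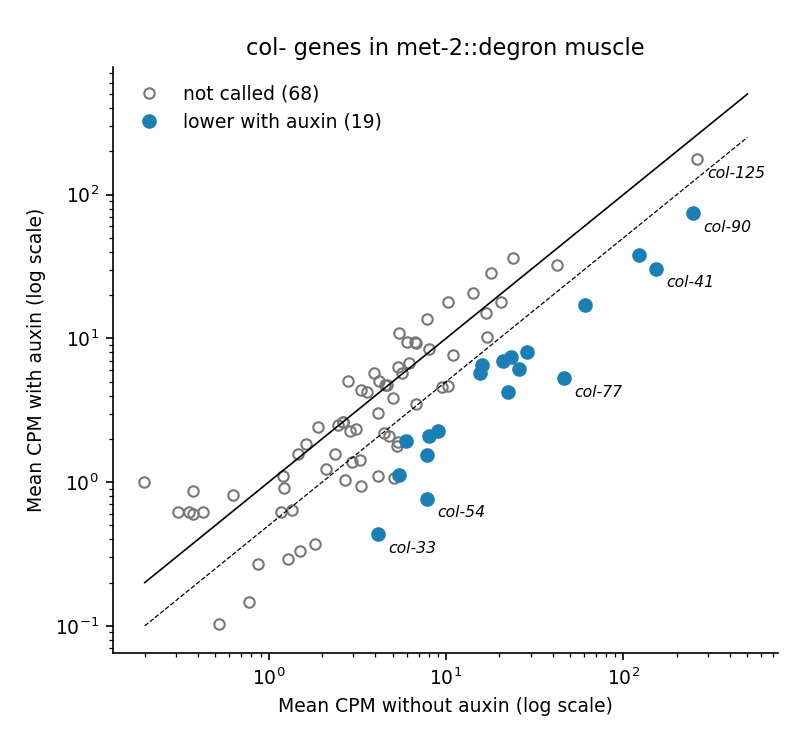
Mean CPM (2 libraries each) of the 87 tested *col-* genes in *met-2::degron* muscle with auxin against without, both axes on a log scale; the solid line marks equal levels and the dashed line a 2-fold fall. The 19 filled genes lie below the dashed line, from *col-33* at 4.15 CPM without auxin to *col-90* at 246 CPM.

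Other collagens fell with them. Of 17 body-shape collagens tested, 8 were lower with auxin and 0 higher, led by *dpy-4*, *dpy-13* and *rol-6* (fitted log2 changes -2.46 ± 0.25, -2.23 ± 0.21 and -1.98 ± 0.29), and their summed level was 2102 and 1366 CPM without and 533 to 559 CPM with auxin. The cuticlin *cut-2* fell too (-2.37 ± 0.23, adjusted p = 1.97e-05), and 2 of 23 genes of the moulting cycle, *mlt-8* and *mlt-10*. Among 18 collagen processing genes 0 were called by edgeR, where an unadjusted p under 0.05 was found for 1 higher and 4 lower genes. The hypodermis markers summed to 128 and 134 CPM without and 130 and 147 CPM with auxin, and the seam markers to 68.3 to 71.5 and 64.9 to 71.9 CPM, with 0 of 8 and 0 of 6 tested markers called by edgeR (1 and 0 lower at an unadjusted p under 0.05). The germline markers summed to 92.2 to 189 CPM without and 456 to 484 CPM with auxin, with 3 of 9 higher, and their part in the falls was not tested. N2 muscle, another experiment in another table, had 20.1 and 29.8 CPM of the hypodermis markers. Scaled by library totals, 9 members were lower with auxin in place of 19.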

How the data were processed

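RNA of sorted L3 cells was sequenced with a full-length cDNA kit that does not mark strand. QuasR with hisat2 and ce10 was used by the authors, who deposited counts of uniquely aligned reads over WS220 exons, in 3 tables of 20392 genes with 22 count columns. The strand setting of that counting was "same". Here CPM and RPKM were computed from the deposited counts and exon widths, and names and neighbours came from WBcel235. edgeR 4.0.16 (R 4.3.3; TMM, filterByExpr, quasi-likelihood test) was run on whole tables, with Benjamini-Hochberg adjustment over all genes tested. Genotypes of 1 tissue were fitted together, and each tissue or auxin contrast on its own 4 libraries. A call needed an adjusted p under 0.01 and over 2-fold on log2 of scaled counts plus 8. Interactions needed the adjusted p alone. A bound against a group at 0 used 3 counts per library and covers counting error only. Depth was 11883702 to 24752059 counts. No 2 libraries were duplicates, and the fit was tested on simulated counts.

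The named genes were those of highest RPKM per tissue, up to 5 called rises and 5 falls per contrast whose groups did not overlap, *col-2*, *col-6*, *col-7*, *col-19* and *col-99*, and up to 3 called genes per list. Others were chosen after their values were seen (*col-39*, *col-167*, muscle *col-65* and *col-77*, and *elt-3*, with other members listed by their calls or as neighbours). The members and lists were chosen with earlier results of these data known. Alternatives were library totals, no filter, an adjusted p of 0.05, DESeq2 1.42.0, a replicate block, only the compared groups and each library left out.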

Additional observations from a re-analysis of the deposited data

Results flagged for a closer look

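In seam cells the effect of losing both genes differed from the sum of the single effects in 51 of 120 members tested. This was by a test of the interaction in edgeR (adjusted p under 0.01). It was positive in 40 and negative in 11, against 16.3% and 11.1% of all genes tested, so negative members were no more frequent than among all genes. On the log2 scale with 8 added, the difference between the effect of *met-2* in a *set-25* background and alone was 10.67 for *col-80*, 9.74 for *col-91*, 9.67 for *col-58*, 9.17 for *col-160*, 8.73 for *col-142*, 6.55 for *col-156* and 6.38 for *col-54*. It was negative for *col-43* (-1.71), *col-49* (-1.63), *col-34* (-1.60), *col-71* (-1.33), *col-90* (-1.08) and *col-79* (-0.76).

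The change in *set-25* differed between seam cells and muscle in 13 of 120 members tested, by the same kind of test. All 13 were more negative in seam cells, as were 1.54% of all genes tested, with 0.248% more positive. The seam change minus the muscle change was -7.04 for *col-80*, -6.32 for *col-58*, -5.62 for *col-160*, -5.46 for *col-91*, -5.13 for *col-156* and -5.09 for *col-142*. For the double mutant the tissues differed in 1 member, *col-111*, which was more negative in seam cells (0.396% of all genes tested were more negative and 0.101% more positive). Tissue and experiment cannot be told apart in these tests, and members near 0 in muscle had little room to fall there.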

How the results depend on the processing

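Without the filter on low counts, called members numbered 2 for *met-2*, 1 for *set-25* and 3 for the double mutant in muscle (0 in each otherwise), 44 for *met-2* (15) and 25 for the double mutant (12) in seam cells, and 62 for the double mutant against *met-2* (38). At an adjusted p of 0.05 there were 2 for *met-2* and 2 for the double mutant in muscle, 36 for *met-2* in seam cells, 82 between muscle and non-muscle cells (53), 9 for the difference between tissues in *met-2* (0) and 3 in the double mutant (1). DESeq2 called 2 and 2 in *met-2* and double mutant muscle and 29 in *met-2* seam cells. Fitting only the compared groups gave 1 and 2 in *met-2* and double mutant muscle, 25 for *set-25* (46) and 6 for the double mutant in seam cells. Library totals gave 9 with auxin (19) and 80 between muscle and non-muscle cells. Leaving out 1 library gave 0 to 25 for *met-2* and 3 to 15 for the double mutant in seam cells, 11 to 22 for the double mutant against *met-2*, and 35 to 48 between muscle and non-muscle cells. Fewer samples are part of these last settings, and the other causes were not tested. Replicate numbers were not known to pair samples: same-number deviations correlated at -0.07 to 0.14 in the genotype tables and -0.22 in the degron table. With the replicate number as a block, double mutant muscle had 1 call and auxin 25, and beside the first no count moved by over 1.5 times. Of 598 values of named genes under an alternative, 543 kept the call and 55 lost it. Direction reversed in 0, but it could not reverse, since these genes were picked as called with groups that did not overlap. At low depth calls were still made: of 52 tested members with a mean under 10 CPM in seam cells, 1 was called in *met-2* and 10 in *set-25*.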
